A study of Mus musculus with 13 samples.

Results

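The transcription factors that mark projection neurons of the cerebral cortex were read as 9 genes: Neurod2, Neurod6, Tbr1, Fezf2, Bcl11b, Sox5, Tle4, Cux1 and Cux2. Every probe set annotated to 1 of these symbols was taken, which gave 32 of 45037 non-control probe sets, and 9 of 18193 genes with a probe set of their own. Cux1 had 9 probe sets, Sox5 7, Bcl11b 4, Cux2, Neurod2 and Tle4 3 each, and Tbr1, Fezf2 and Neurod6 1 each. No probe set carried a member symbol beside another one. Of the 32 probe sets, 27 had means over the 40th percentile (a signal of 56.9), and the 5 below it belonged to Cux1, Sox5 (2), Neurod2 and Tle4.

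Each array held RNA of the whole brain of 1 mouse embryo at embryonic day 18.5: 6 wild-type and 7 Meg3 knock-out embryos from 5 litters. Meg3 is a long non-coding RNA that is read from the maternal copy of an imprinted cluster. The strain, the sex and the extent of the Meg3 deletion are not known from the labels, which name no treatment or other allele. Litter 219 gave 2 wild-type embryos and 1 without Meg3, litter 238 gave 1 wild-type and 2 without Meg3, litters 250 and 262 gave 2 and 1 of either genotype, and litter 148 gave a single knock-out. Arrays are called here by genotype and replicate number, so that wild-type 2 is the second wild-type embryo.

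Projection neurons are the excitatory neurons of the cortex that send long axons to the other hemisphere, the thalamus, the brainstem and the spinal cord. They are born in order, deep layers before upper layers, and a small set of mutually repressing transcription factors sets which axon a neuron grows. Around birth in the mouse most of them have been generated and are still differentiating, so these factors are usually strong in the embryonic cortex. Fezf2 and Bcl11b (also called Ctip2) belong to the subcerebral neurons of layer V, Tbr1 and Tle4 to the corticothalamic neurons of layer VI, Sox5 to the deep layers and subplate, Cux1 and Cux2 to the upper layers, and Neurod2 and Neurod6 to nearly all excitatory cortical neurons. Several are also made elsewhere in the brain, Bcl11b in striatal neurons for example, and in whole brain RNA fewer cells of a type and less RNA per cell cannot be told apart.

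Meg3 itself was checked first. Its signal, in linear intensity units of the deposited table, was 4955 ± 1374 (SD, n = 6) in wild-type and 378 ± 106 (SD, n = 7) in knock-out brains, with no overlap between the groups. Whole brain holds far more than cortex, and of 15 measured marker genes of other brain regions, 14 lay above the 40th percentile. The median signal per array ranged from 82.9 to 124. The ratio of the 3' to the 5' Actb control probe sets, a measure of RNA quality, was 2.92 in wild-type 2 and 1.81 in knock-out 1, against 1.32 to 1.495 in the other 11 arrays.

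None of the 32 probe sets separated Meg3 knock-out from wild-type brains past the threshold. With limma on log2(signal + 16) over all 45037 probe sets, 0 of 32 had an adjusted p under 0.05, where 25 of all probe sets (0.0555%) did, 3 of them higher in knock-out brains (0.00666%). After median centring or quantile normalization 0 of 22 such calls were higher. At an unadjusted p under 0.05 there were 2 member probe sets of 32, both of Cux1, beside 5.23% of all probe sets. In 0 of 32 did the knock-out and wild-type arrays fail to overlap, beside 0.164% of all probe sets. With 1 probe set per gene above the 40th percentile the fit called 3 of 12920 genes (0.0232%), and none was a member.

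A gene was represented by its strongest probe set on average. The 9 log2 changes, knock-out minus wild-type, lay between -0.08 and 0.15, with a median of 0.06, 5 above and 4 below 0. The median of all genes was 0.04, with 63.3% of them above 0. Over all probe sets the median was 0.08, with 69.6% above 0, and over the 32 member probe sets it was 0.11, with 23 above 0. After centring each array on its median the median of all probe sets moved to -0.11, that of the 9 genes to -0.14, and all 9 genes lay below 0. Quantile normalization and removal of the array factor left 5 above and 4 below 0, with medians of 0.04 and 0.01. The 95% intervals of the 9 genes reached from -0.60 to 0.67 at their widest points.

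Neurod2 and Neurod6 are basic helix-loop-helix factors that switch on in newly born excitatory cortical neurons and stay on as they mature. Neurod2 (probe set 1435411_at) had signals from 1420 to 3482 with a median of 1593 in wild-type brains, and from 1263 to 2814 with a median of 1868 in knock-out brains. The ranges overlapped widely, with wild-type 1 the highest and knock-out 3 the lowest. Its log2 change was -0.08 ± 0.24 SE (95% interval -0.60 to 0.44, limma adjusted p = 1.00, exact permutation p = 0.747). A second strong probe set, 1418995_at, gave 0.12 ± 0.24 SE. Neurod6 (1418047_at) ranged from 2985 to 7526 with a median of 5873 in wild-type brains, and from 4054 to 8324 with a median of 5056 in knock-out brains. Knock-out 1 was the highest embryo and wild-type 3 the lowest, and the groups overlapped. Its log2 change was 0.06 ± 0.24 SE (95% interval -0.44 to 0.57, limma adjusted p = 1.00, exact permutation p = 0.809).

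The promoters of 4 members are shown because Tbr1 with Neurod6, and Bcl11b with Neurod2, were the 2 pairs with the highest Pearson r over the 13 embryos. Each is the 250 bases before the annotated start, from RefSeq on GRCm38.p6, written 5′ to 3′ along the gene, with matches to 5 searched motifs in capitals. The motifs were the E-boxes CAGATG and CATATG, at which Neurod proteins bind, the general promoter element CCAAT, the Sox motif AACAAT, and the T-box motif AGGTGNNA of the family of Tbr1, on both strands. Neurod2 lies on the minus strand at chr11:98329646-98329895 and Neurod6 on the minus strand at chr6:55681264-55681513.
Neurod2: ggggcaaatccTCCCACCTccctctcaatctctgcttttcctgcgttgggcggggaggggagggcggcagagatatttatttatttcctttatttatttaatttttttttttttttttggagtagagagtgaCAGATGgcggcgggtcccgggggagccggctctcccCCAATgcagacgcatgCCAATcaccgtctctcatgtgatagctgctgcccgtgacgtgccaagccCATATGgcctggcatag
Neurod6: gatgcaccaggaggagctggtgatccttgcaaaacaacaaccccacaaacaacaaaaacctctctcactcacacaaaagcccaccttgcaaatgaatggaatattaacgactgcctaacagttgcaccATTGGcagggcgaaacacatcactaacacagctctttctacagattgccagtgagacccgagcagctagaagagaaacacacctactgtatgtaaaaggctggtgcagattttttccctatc
The Neurod2 window held CAGATG 118 bases and CATATG 17 bases before the start, CCAAT at 82 and 66, and the T-box motif at 239. The Neurod6 window held CCAAT at 122 bases and none of the other 4. Among 32851 RefSeq promoter windows of this length, 14.4% held CAGATG, 3.46% CATATG, 33.8% CCAAT, 9.42% AACAAT and 13.7% AGGTGNNA. No match overlapped a match to another motif in the member windows.

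Tbr1 is the T-box factor that gives layer VI neurons their corticothalamic identity and represses Fezf2 and Bcl11b there. Tbr1 (1416711_at) ranged from 857 to 2088 with a median of 1514 in wild-type brains, and from 1074 to 2307 with a median of 1395 in knock-out brains. Wild-type 3 was again the lowest embryo and knock-out 1 the highest. Its log2 change of 0.15 ± 0.24 SE was the largest of the 9 genes and was still within its error (95% interval -0.37 to 0.67, limma adjusted p = 1.00, exact permutation p = 0.572). Fezf2, the zinc finger factor that specifies subcerebral projection neurons, had signals (1418790_at) from 361 to 768 with a median of 589 in wild-type and from 319 to 966 with a median of 673 in knock-out brains. The 2 knock-out embryos at the extremes, knock-out 4 and knock-out 2, enclosed the whole wild-type range. Its log2 change was 0.13 ± 0.25 SE (95% interval -0.41 to 0.66, limma adjusted p = 1.00, exact permutation p = 0.639).

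Bcl11b, the zinc finger factor through which Fezf2 directs corticospinal axons, is the member on chromosome 12, which also carries Meg3. Its probe set 1435227_at ranged from 3058 to 6161 with a median of 4253 in wild-type brains, and from 2780 to 5973 with a median of 3932 in knock-out brains. The overlap was almost complete. The log2 change was -0.07 ± 0.22 SE (95% interval -0.54 to 0.40, limma adjusted p = 1.00, exact permutation p = 0.769), and the other 3 probe sets gave -0.04, -0.09 and 0.08. The Tbr1 window lies on the plus strand at chr2:61804203-61804452 and that of Bcl11b on the minus strand at chr12:108003415-108003664, written as above.
Tbr1: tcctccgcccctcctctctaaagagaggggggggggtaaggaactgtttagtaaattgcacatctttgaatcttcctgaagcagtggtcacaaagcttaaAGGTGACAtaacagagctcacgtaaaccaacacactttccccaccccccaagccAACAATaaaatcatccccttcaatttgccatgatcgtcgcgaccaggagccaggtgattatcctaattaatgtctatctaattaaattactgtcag
Bcl11b: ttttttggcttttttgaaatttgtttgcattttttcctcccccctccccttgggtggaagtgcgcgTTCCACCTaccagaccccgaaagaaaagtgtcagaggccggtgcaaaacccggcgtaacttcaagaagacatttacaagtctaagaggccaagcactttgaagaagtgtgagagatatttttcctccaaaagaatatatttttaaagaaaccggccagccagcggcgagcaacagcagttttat
Both windows held the T-box motif, 150 bases before the start in Tbr1 and 184 in Bcl11b, and Tbr1 also held the Sox motif at 96. Of 11 windows of the 9 members, 4 held the T-box motif (Bcl11b, Cux2, Neurod2, Tbr1), 3 genes had CCAAT (Neurod2, Neurod6, Tle4) and 2 the Sox motif (Tbr1, Tle4). Each match is a run of letters in this window, and no binding was measured.

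Sox5, a SoxD factor that controls when the deep-layer corticofugal neurons emerge, had 6 of 7 probe sets with a difference above 0. After median centring that of its strongest probe set was -0.07. Its strongest, 1455535_at, ranged from 589 to 1013 with a median of 753 in wild-type brains and from 700 to 1267 with a median of 822 in knock-out brains. Knock-out 2 stood above all other embryos here. The log2 change was 0.13 ± 0.17 SE (95% interval -0.24 to 0.50, limma adjusted p = 1.00, exact permutation p = 0.466). Probe set 1423500_a_at ranged from 422 to 654 with a median of 532 in wild-type and from 508 to 890 with a median of 647 in knock-out brains. Knock-out embryos averaged higher than their wild-type littermates, by 0.73, 0.34, 0.31 and 0.25 in litters 219, 238, 250 and 262 on the log2 scale. In litter 219 wild-type 2, the array of highest Actb ratio, had 428 and wild-type 1 had 654. Over all arrays the log2 change was 0.32 ± 0.15 SE (95% interval -0.01 to 0.64, exact permutation p = 0.049), and it did not pass over all probe sets (limma adjusted p = 0.947). After median centring this probe set gave 0.12 ± 0.15 SE. Probe set 1432189_a_at, which followed it closely over the arrays, gave 0.32 ± 0.21 SE (limma adjusted p = 0.983). Probe set 1440827_x_at gave 0.49 ± 0.25 SE (limma adjusted p = 0.952) and 0.33 without knock-out 1, whose signal of 477 was its highest. The last one above the 40th percentile, 1452511_at, gave -0.10, and the 2 weak ones, 1432190_at and 1459261_at, gave 0.29 and 0.02.

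Tle4, a Groucho-type corepressor of corticothalamic neurons, showed the smallest difference. Its probe set 1450853_at ranged from 2527 to 4036 with a median of 3217 in wild-type brains and from 2545 to 3655 with a median of 3141 in knock-out brains. The 2 medians nearly coincided, and the log2 change was -0.00 ± 0.14 SE (95% interval -0.29 to 0.29, limma adjusted p = 1.00, exact permutation p = 0.988). The weaker probe sets 1425650_at and 1430384_at gave 0.06 ± 0.29 SE and 0.21 ± 0.37 SE.

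Cux2, a homeobox factor of upper-layer neurons and their dendrites, ranged (1447500_at) from 761 to 1231 with a median of 970 in wild-type brains and from 791 to 1684 with a median of 1023 in knock-out brains. Knock-out 1 alone stood above the wild-type range. The log2 change was 0.12 ± 0.18 SE (95% interval -0.26 to 0.49, limma adjusted p = 1.00, exact permutation p = 0.535), and 0.01 without knock-out 1. The other 2 probe sets gave 0.07 ± 0.10 SE (1447821_at) and 0.27 ± 0.23 SE (1450181_at), and the latter was -0.00 without wild-type 2 and knock-out 1.

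Cux1, the other upper-layer homeobox factor, which is also made in many dividing cells, had the steadiest value of the 9 genes over the embryos, while its weak probe sets were not steady. Its strongest, 1451435_at, ranged from 1937 to 2364 with a median of 2127 in wild-type brains and from 1815 to 2369 with a median of 2041 in knock-out brains, so that the highest embryo had 1.31 times the signal of the lowest. The log2 change was -0.04 ± 0.10 SE (95% interval -0.27 to 0.18, limma adjusted p = 1.00, exact permutation p = 0.558). The next 5, 1424667_a_at, 1434683_at, 1424668_a_at, 1425611_a_at and 1437686_x_at, gave -0.05, 0.16, 0.12, 0.11 and 0.07, each with an interval that held 0.

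**Figure D1:**
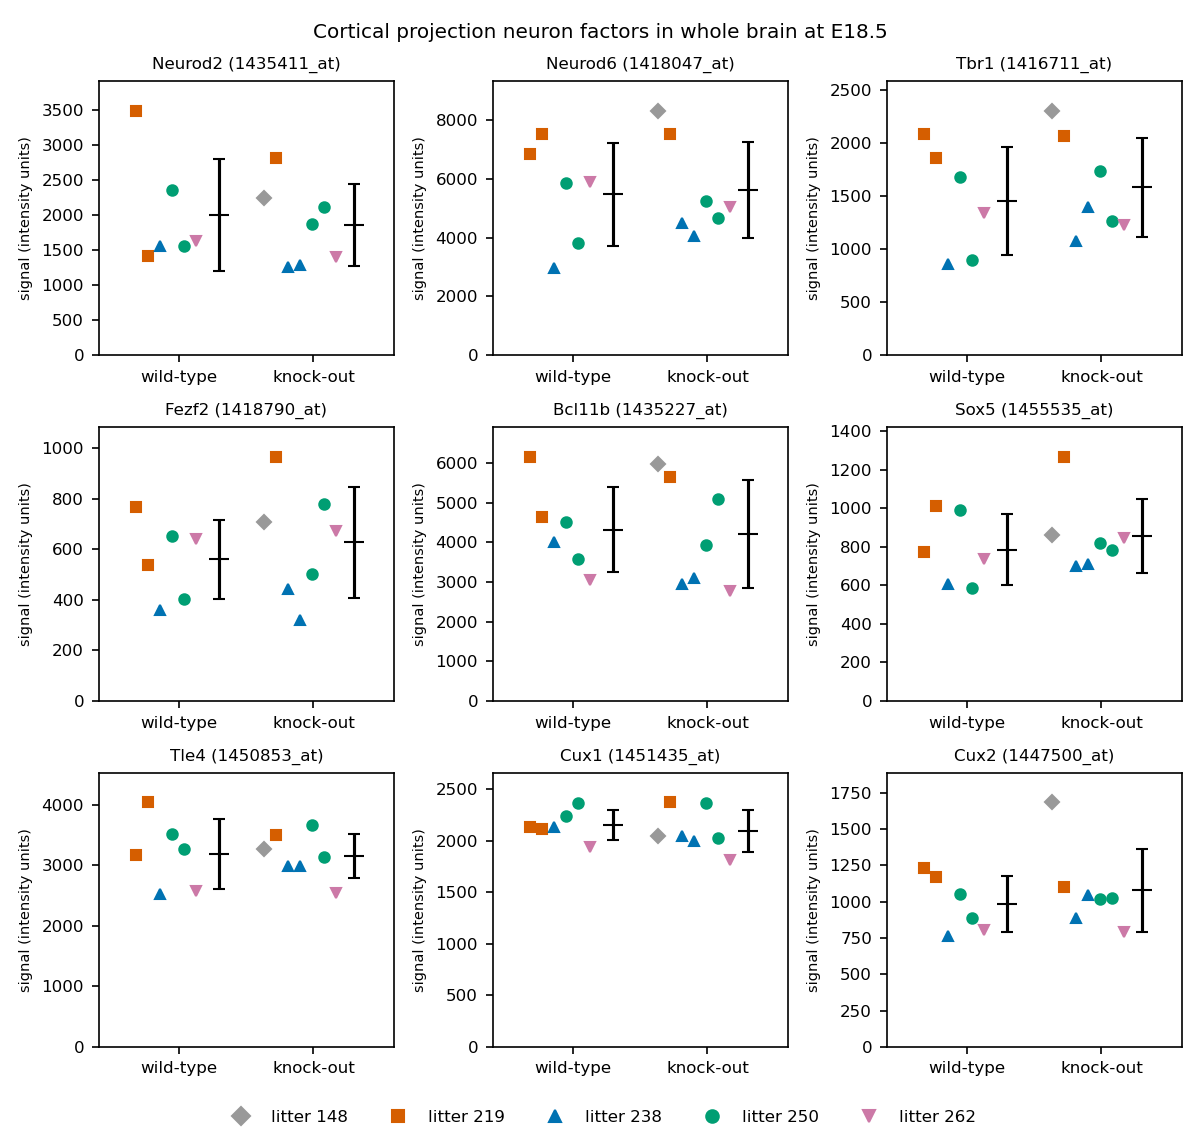
Signal in linear intensity units (y axis from 0) of the probe set with the highest mean for each of the 9 genes, 1 point per embryo, with wild-type on the left, knock-out on the right and litters by colour and shape. Black bars are group means with SD (n = 6 and n = 7), and in all 9 panels the groups overlap.

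The 2 member probe sets below an unadjusted p of 0.05 were weak Cux1 probe sets. Probe set 1437431_at ranged from 33.0 to 78.1 with a median of 57.9 in wild-type brains and from 64.8 to 447 with a median of 88.2 in knock-out brains. Knock-out 1 was far above the other 6 knock-out arrays, of which the next had 139. The log2 change was 0.86 ± 0.34 SE (95% interval 0.12 to 1.59, exact permutation p = 0.0146, limma adjusted p = 0.939) and 0.55 without knock-out 1. Probe set 1441956_s_at, whose unadjusted limma p was 0.0687, had 1095 in knock-out 1 against 46.6 to 254 in the other 12 arrays. Its log2 change was 0.96 ± 0.49 SE (95% interval -0.08 to 2.01, exact permutation p = 0.0944, limma adjusted p = 0.952) and 0.56 without knock-out 1. Over the 13 arrays 1437431_at and 1441956_s_at had r = 0.90 and rho = 0.79 (permutation p adjusted over 72 pairs 0.00461 and 0.0205), and r = 0.61 without the 2 arrays farthest from the median. Neither went with the strongest Cux1 probe set (r = -0.11 and 0.04, rho = -0.03 and 0.14, adjusted p from 0.784 to 0.975). Probe set 1425612_at lay below the 40th percentile, at 10.8 ± 6.74 (SD, n = 6) in wild-type and 20.0 ± 7.64 (SD, n = 7) in knock-out brains. It gave 0.44 ± 0.19 SE (95% interval 0.03 to 0.84, exact permutation p = 0.0478, limma adjusted p = 0.939). Knock-out 1 was the only embryo of litter 148 and had the second highest Actb ratio, so genotype, litter and RNA quality cannot be told apart in it.

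**Figure D2:**
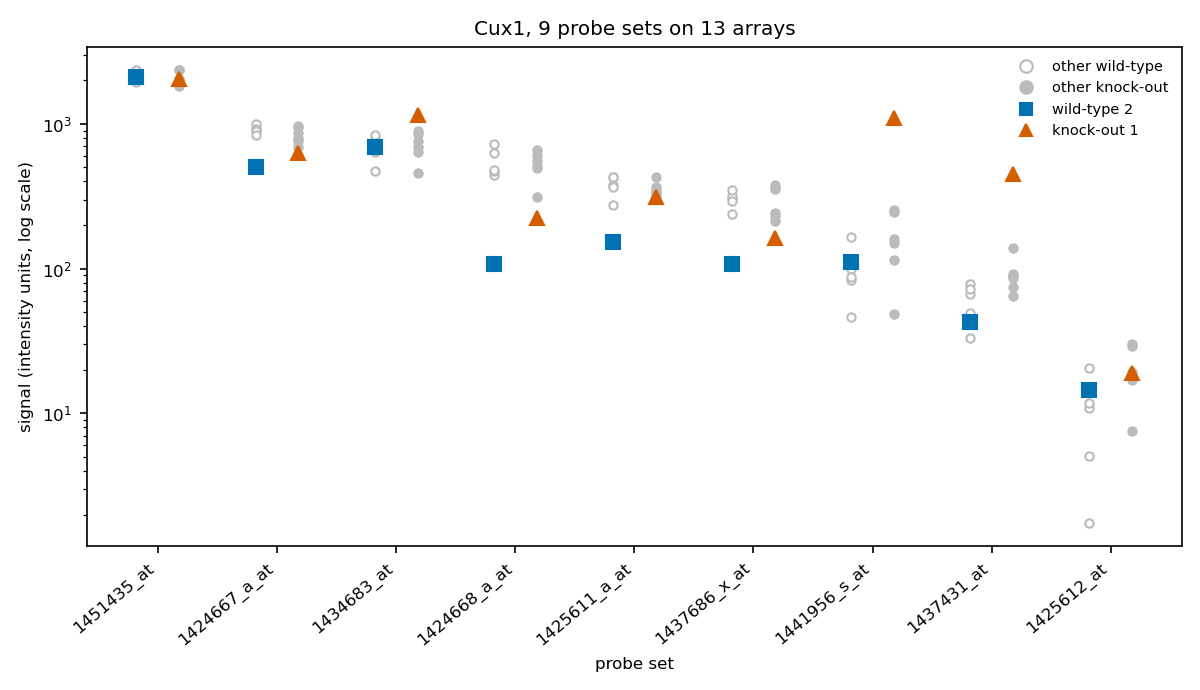
Signal of the 9 Cux1 probe sets (x axis, strongest on the left) on 13 arrays, in linear intensity units on a log axis, with open circles for wild-type and filled circles for knock-out embryos. Wild-type 2 (blue squares) is lowest in 4 probe sets, at 108 in 1424668_a_at for example, and knock-out 1 (orange triangles) is highest in 1434683_at, 1441956_s_at and 1437431_at, at 1149, 1095 and 447.

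Wild-type 2, the array with the highest Actb ratio, was low in some probe sets of a gene and not in others. In Cux1 1424668_a_at it had 108, where the other wild-type arrays had 445 to 732, and in 1437686_x_at 108, where they had 239 to 351. In the strongest Cux1 probe set it had 2111, inside the range of the others. The same held for Cux2, with 86.9 in 1450181_at (201 to 346 in the other wild-type arrays) but 1167 in 1447500_at, and for Bcl11b, with 1579 in 1450339_a_at (3040 to 5933) but 4634 in 1435227_at. In Neurod2 it was the lowest wild-type array in all 3 probe sets, at 601 in 1418995_at. Refitting without wild-type 2 and knock-out 1 left 0 of 32 past the threshold and a median of 0.06 over the 9 genes. When the Actb ratio entered the model 0 of 32 passed too, with a median of 0.11, 6 genes above and 3 below 0, and single probe sets moved more, such as Bcl11b 1450339_a_at from -0.04 to -0.24.

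**Figure D3:**
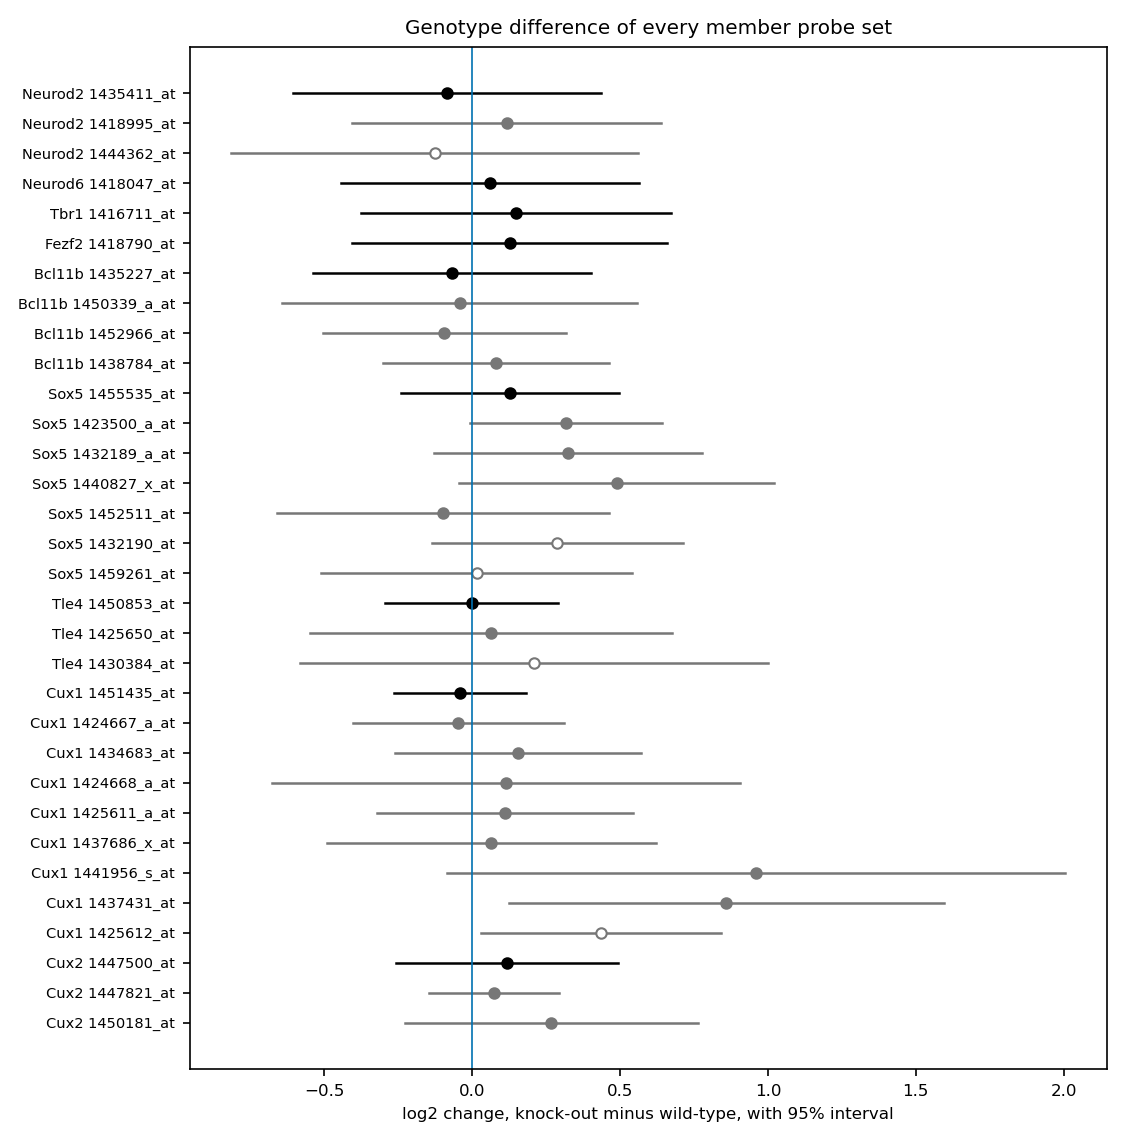
The log2 change (x axis, knock-out minus wild-type) of all 32 probe sets with its 95% interval from limma. Black marks the probe set taken for each gene, grey the others, and open circles the 5 below the 40th percentile. The interval holds 0 in 30 of 32, and the 2 exceptions are Cux1 1437431_at and 1425612_at.

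Probe sets of 1 gene agreed well for Bcl11b and for the 2 strong Neurod2 probe sets, and poorly for Cux1 and Tle4. Over the 13 arrays the 6 pairs of Bcl11b probe sets had Pearson r from 0.54 to 0.85 with a median of 0.76, and a median of 0.88 without wild-type 2 and knock-out 1. The 2 strong Neurod2 probe sets had r = 0.83 and rho = 0.92 (permutation p = 0.0006 for r, adjusted over 72 pairs 0.0072). Without the 2 arrays farthest from the median r was 0.78. With the weak Neurod2 probe set 1444362_at, 1435411_at had r = 0.44 and 1418995_at had r = 0.66. In Sox5, 1423500_a_at and 1432189_a_at had r = 0.90 and rho = 0.83 (adjusted p = 0.0018 for r), while the median of its 21 pairs was 0.28. In Cux1 the median of 36 pairs was 0.10, 22 were above 0, and the range ran from -0.31 to 0.96. The Cux1 pair of highest r, 1424667_a_at and 1437686_x_at, had r = 0.96 and rho = 0.85 (adjusted p = 0.00072 and 0.00768), and r = 0.86 without wild-type 2 and knock-out 1. Other Cux1 pairs rested on those arrays, since 1424668_a_at and 1437686_x_at went from r = 0.83 to 0.25 without them. The median of the 3 Cux2 pairs was 0.27, and the pair of Tle4 probe sets above the 40th percentile had r = -0.40 (rho = -0.37). Of all 72 pairs, 13 had an adjusted permutation p under 0.05 and the median r was 0.25. Probe sets of a gene share the RNA on each array, so these values describe the measurement.

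The 9 factors varied between embryos of the same genotype, and most of them together. The highest embryo had between 1.31 times (Cux1) and 3.03 times (Fezf2) the signal of the lowest. On the log2(signal + 16) scale the mean deviation of the 9 genes from their own means over all arrays ran from -0.40 in wild-type 3 to 0.34 in wild-type 1 among wild-type embryos, and from -0.28 in knock-out 3 to 0.43 in knock-out 2 among knock-out embryos. The group means were -0.02 in wild-type and 0.02 in knock-out embryos. Means of several embryos spread less than single embryos, so the 2 spreads were not compared. All 9 genes lay above their own mean in wild-type 4 and knock-out 2, and 0 of 9 did in knock-out 3.

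The deviations are given here by litter. Litter 219 averaged 0.31, with its 2 wild-type and 1 knock-out embryos between 0.16 and 0.43. Litter 238 averaged -0.32, with its 1 wild-type and 2 knock-out embryos between -0.40 and -0.27. Litter 262 averaged -0.17, litter 250 averaged 0.00 with a spread from -0.28 to 0.18, and the 1 embryo of litter 148 had 0.36. The embryos of litters 219 and 238 therefore did not overlap. The Neurod6 signal averaged 7307 in litter 219 and 3846 in litter 238, that of Tbr1 2005 and 1109, and that of Fezf2 757 and 374.

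Whether the litters differed was tested with a limma F test of litter with genotype in the model, a test chosen after the arrays had been seen. At an unadjusted p under 0.05 it found 10 of 32 probe sets, beside 15.5% of all probe sets. By strongest probe set it found 5 of 9 genes, Neurod6, Bcl11b, Cux2, Tbr1 and Fezf2 (limma adjusted p from 0.155 to 0.254). The share of all genes at that unadjusted p was not computed, so 5 of 9 has no like share beside it. After adjustment over all probe sets 0 of 32 passed (lowest adjusted p = 0.144), beside 10 of 45037 (0.0222%), or 4 of 18193 genes (0.022%). The strongest probe sets of Tle4, Neurod2, Sox5 and Cux1 had limma adjusted p of 0.419, 0.469, 0.472 and 0.784. Other probe sets of these genes could differ from that. The lowest value, 0.144, was that of Cux1 1434683_at, and Tle4 1425650_at had 0.149. The labels say nothing of age within the day, dissection or the day of array processing, and whether these moved with litter was not tested. The genotype difference itself was also compared between the 4 litters with both genotypes. The limma F test of genotype by litter gave 0 of 32 member probe sets at an unadjusted p under 0.05, beside 4.4% of all probe sets, and 0 probe sets in all (0%) after adjustment.

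**Figure D4:**
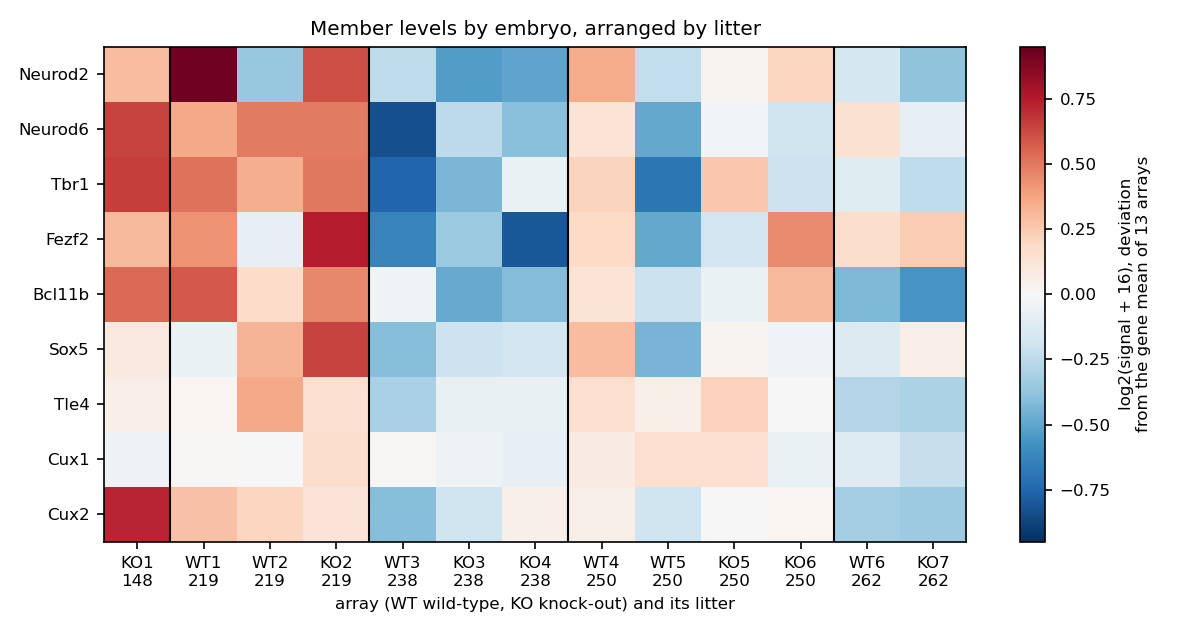
Deviation of log2(signal + 16) from the mean of 13 arrays for each of the 9 genes (vertical axis) in each embryo (horizontal axis), arranged by litter with black lines between litters. Litter 219 is mostly red (mean 0.31) and litter 238 mostly blue (mean -0.32) in both genotypes, and the Cux1 line is nearly white.

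Within this pattern the genes differed in how closely they went together. Of 36 pairs of the 9 genes, 35 had a Pearson r above 0 over the 13 embryos, with a median of 0.58, and 11 had a permutation p under 0.05 after adjustment over the 36 (12 for Spearman's rho). These permutations shuffled all 13 embryos freely and ignore that littermates are not independent. Tbr1 and Neurod6 had the highest Pearson r, with r = 0.91 (permutation p = 2e-05, adjusted 0.00072) and rho = 0.89 (p = 0.00014, adjusted 0.00252), and r = 0.85 without the 2 embryos farthest from the median. Bcl11b and Neurod2 had r = 0.84 (p = 0.00021, adjusted 0.00378) and rho = 0.80 (p = 0.00151, adjusted 0.0136), and r = 0.79 without the 2 farthest. Tbr1 and Cux2, a deep-layer and an upper-layer factor and the pair of highest rho, had r = 0.83 (p = 0.00033, adjusted 0.00396) and rho = 0.90 (p = 0.00012, adjusted 0.00252), and r = 0.77 without the 2 farthest. Cux1, read by its strongest probe set, stood aside. Its 8 pairs had a median r of 0.19, against 0.61 in the 28 pairs without it, all of which were above 0. The 36 pairs of Cux1 probe sets had a median r of 0.10 among themselves, so the value of 0.19 describes that probe set. Whether the other Cux1 probe sets went with the other genes was not tested.

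After the litter means were subtracted the median r of the 36 pairs was 0.11, with 25 above 0. The 3 pairs named above kept r of 0.80, 0.79 and 0.81 after that step, while Bcl11b and Tbr1 went from 0.67 to 0.05 and Bcl11b and Tle4 from 0.54 to -0.74. Litter 148, with 1 embryo, adds nothing to these values. Subtracting genotype means left the median at 0.59, and median centring, quantile normalization or removal of the array factor gave 0.61, 0.60 and 0.59.

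The genes most like the mean standardised profile of the 9 members, among 12911 other genes above the 40th percentile, were Bcl6 (r = 0.95), Acvr1 (0.93), Gjc1 (0.92), Egr3 (0.91) and Srl (0.91). Bcl6 is a transcriptional repressor that acts in cortical neurogenesis, Acvr1 a BMP type I receptor, Gjc1 a connexin, Egr3 an immediate early factor and Srl the calcium-binding protein sarcalumenin. Their log2 changes by genotype were 0.01 to 0.12 (limma adjusted p = 1.00 for each). Over all genes compared the median r was 0.06, and 78 were above 0.8. Of a list of 23 other measured transcription factors of cortical projection neurons, 6 were above 0.8, with a median of 0.70 and the highest value, 0.90, in Pou3f1, a POU factor of cortical projection neurons. The median was 0.15 for the products of projection neurons, 0.55 for GABAergic interneuron genes, 0.45 for striatal genes, 0.28 for pallial progenitor genes, -0.18 for other brain regions, -0.28 for Cajal-Retzius genes and -0.30 for glia. The amount of cortex in each brain sample was not measured, and its part in these values was not tested.

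The other genes of these neurons also showed no genotype difference past the threshold. Among 23 measured projection neuron factors 0 passed, with 17 above and 6 below 0 and a median log2 change of 0.02. The 4 with the smallest p were Rorb, a layer IV receptor (0.26 ± 0.23 SE), Lmo3, a LIM-only cofactor (0.16 ± 0.15 SE), Mef2c, a MADS-box factor of maturing neurons (0.17 ± 0.19 SE), and Neurod1 (-0.15 ± 0.19 SE). Among 17 measured products of these neurons 0 passed, with 9 above and 8 below 0 and a median of 0.01. They included Unc5d, a netrin receptor of upper-layer neurons (0.25 ± 0.21 SE), Rprm, a layer VI gene (0.17 ± 0.15 SE), Slc17a6, a vesicular glutamate transporter (0.23 ± 0.23 SE), and Nxph4, a subplate gene (0.30 ± 0.30 SE). Among 13 relatives of the members 0 passed, with 8 above and 5 below 0. Neurod4 (-0.29 ± 0.18 SE), Eomes, the T-box factor of intermediate progenitors (-0.33 ± 0.24 SE), Tle1 (0.13 ± 0.10 SE) and Sox13 (-0.20 ± 0.15 SE) had the smallest p there.

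Cells that lie upstream of or beside projection neurons gave the same count. Of 12 pallial progenitor genes 0 passed (6 above and 6 below 0, median -0.01), with Nhlh1 at -0.27 ± 0.24 SE, Pax6 at -0.18 ± 0.19 SE and Vim at 0.11 ± 0.16 SE. Of 7 Cajal-Retzius genes, 14 striatal genes, 13 interneuron genes, 15 genes of other regions, 9 glial genes and 16 genes of other cells, 0 passed in each list, with medians of 0.07, -0.12, -0.10, 0.03, 0.02 and 0.12. At an unadjusted limma p under 0.05 there was 1 gene in the list of other cells, Cx3cr1, a microglial chemokine receptor (0.31), and 0 in each of the other lists. Eomes is in 2 of the lists. Striatal genes are set beside Bcl11b because medium spiny neurons make it too, and 11 of 14 lay below 0. The summed signal of the 14 ran from 13665 to 19851 in wild-type and from 11677 to 23644 in knock-out brains. Knock-out 4 was low in both GABAergic lists, with mean deviations of -0.50 (striatal) and -0.59 (interneurons), and had -0.41 for Bcl11b. Bcl11b was lower still in knock-out 7 (-0.56), knock-out 3 (-0.48) and wild-type 6 (-0.43), where the interneuron list had -0.07, -0.04 and -0.06 and the striatal list -0.27, -0.11 and -0.06. The summed interneuron signal ran from 22827 to 28484 in wild-type and from 19923 to 27321 in knock-out brains, and the part of these cells in the Bcl11b values was not tested.

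Bcl11b was also set against the genes between it and Meg3 on chromosome 12, in the order of the RefSeq annotation of GRCm38.p6. Of 31 annotated genes between them 15 are protein-coding, and 14 of the 31 had a named probe set here. Setd3, a histidine methyltransferase of actin and the gene next to Bcl11b, had a log2 change of -0.00 ± 0.11 SE, and Dlk1, an imprinted gene read from the paternal copy, one of 0.09 ± 0.21 SE. The 14 ranged from -0.05 in Ccnk, a cyclin, to 0.29 in Wars, a tryptophanyl-tRNA synthetase, with 12 above and 2 below 0, a median of 0.07 and 0 past the threshold. The value of -0.07 for Bcl11b lay just below this range.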

How the data were processed

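Total RNA (5 µg per embryo) was turned into biotinylated cRNA with the Affymetrix one-cycle procedure, per the labels' protocols. The authors deposited 1 linear intensity per probe set and array. The summary software and the scaling are not given in the sources used here. Litters were read from the leading number of each embryo label, which no label itself calls a litter.

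Of the table's probe sets, 64 Affymetrix controls were left out. The other 45037 were turned into log2(signal + 16), which understates folds of weak probe sets, and fitted without a filter in limma 3.58.1 (lmFit, eBayes, R 4.3.3), knock-out against wild-type, two-sided. P-values were adjusted by Benjamini-Hochberg over all of them, with a threshold of 0.05. Exact permutation tests covered all 1716 ways to split 13 arrays (two-sided, smallest possible p 0.000583) and ignore litter. Correlations had 100000 permutations, which ignore litter too (Python 3.11.15, scipy 1.17.1, plots with matplotlib 3.10.9). Gene names came from the platform annotation (34945 probe sets with 1 symbol), and all 32 member Entrez identifiers were found in RefSeq. The number of arrays limits the precision.

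The members, gene lists and tests were chosen with earlier results of these data known. Named genes are all member probe sets, up to 4 of smallest p from each list, the genes between Bcl11b and Meg3, and the 5 genes most like the members. Pou3f1 was named after its values were seen.

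Deviations of same-numbered wild-type and knock-out arrays had r over all probe sets from -0.43 to 0.20 (median -0.03, 6 pairs). Litter numbers read from the embryo labels gave 9 wild-type and knock-out pairs of littermates. Their r ran from -0.12 to 0.75 with a median of 0.05. The same-numbered pairs of replicates 2, 3 and 5 were also littermates. Since littermates too had a median r near 0.05, this measure cannot decide whether replicate numbers pair embryos. The fit was tested on simulated data. The alternatives covered scaling, pseudocounts of 1 and 64, a filter, 1 probe set per gene, variance moderation, litter and replicate blocks, RNA quality, array weights, and leaving out each array and each litter.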

Additional observations from a re-analysis of the deposited data

Results flagged for a closer look

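Each group of each member probe set was checked for 1 array far from the others, on the log2 scale, by the gap to its neighbour as a share of the group's range (Dixon's test). Of 64 groups 7 stood out, where chance alone gives about 1 in 20. Wild-type 2 accounted for 3 of them, all low and all in Cux1: 502 in 1424667_a_at (next value 837), 108 in 1424668_a_at (next 445) and 108 in 1437686_x_at (next 239). Knock-out 1 was high in Cux1 1437431_at, at 447 (next 139). Knock-out 2 was high in the strongest Sox5 probe set, 1455535_at, at 1267 (next 858). Wild-type 3 was low in Sox5 1440827_x_at, at 87.3 (next 171). Knock-out 4 was low in Tle4 1430384_at, at 2.30 (next 42.7), a probe set below the 40th percentile. Wild-type 2 and knock-out 1 had the highest Actb 3' to 5' ratios, 2.92 and 1.81, and the part of RNA quality in these values was not tested.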

How the results depend on the processing

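Over 31 alternative settings, 964 recomputed changes of member probe sets included 0 past the threshold (lowest adjusted p = 0.435) and 0 that turned sign with an interval clear of 0. Signs were not stable: 8 of the 9 genes changed sign in at least 1 setting, Cux1 in none. The median of the 9 genes ran from -0.14 (median centring, where all probe sets moved to -0.11) to 0.13 (without litter 219), and from -0.04 to 0.13 when single arrays were left out. Leaving out wild-type 3 gave -0.04, knock-out 1 gave -0.01 and knock-out 2 gave -0.02, and it was 0.13 when the probe sets of a gene were averaged. The count of 25 probe sets past the threshold became 3 with 1 probe set per gene, 10 with the replicate block, 12 without litter 250 and 17 to 26 when single arrays were left out, and the cause was not tested. The first tests fewer features and counts each gene at most 1 time, and the next 2 use fewer arrays. Leaving out knock-out 7 alone, as the replicate block also does, gave 17. Litter as a block gave 17, with a member median of 0.07. Neither block changed a member call. The genotype intervals of the 9 genes allow differences of up to 0.67 on the log2 scale, and the 5 weak probe sets bound little. Leaving out the 2 arrays of highest 3' to 5' ratio and the litter tests were added after seeing the data.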
